A study of Mus musculus with 4 samples.

Results

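Chromatin modifiers and remodelers are the enzymes and subunits that write, erase or read marks on histones and DNA, or that slide and evict nucleosomes with ATP. The genes described here were chosen by symbol: all that start with Kmt, Kdm, Setd, Hdac, Smarc or Arid, those named Chd or Brd plus a number, and Ezh1, Ezh2, Eed, Suz12, Dnmt1, Dnmt3a, Uhrf1, Ep300 and Crebbp. The rule found 87 genes among the 10327 of the deposited table. GENCODE for GRCm38 annotates 95 protein-coding symbols that match it, and the other 8 (Arid3b, Arid3c, Hdac9, Kdm4d, Kdm5d, Kdm8, Setd4 and Smarca1) were not analysed here.

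The measurements are ribosome footprints, the stretches of mRNA that ribosomes shield from RNase, from epidermal keratinocytes of mice at postnatal day 0. Conditional knockouts (cKO, K14Cre,Mettl14F/F, 2 libraries) carried a floxed Mettl14 on both alleles, and controls (Ctrl, K14Cre,Mettl14F/+, 2 libraries) carried it on one. Both groups thus carried the K14Cre transgene, which is active in basal keratinocytes and their progeny, so other cell types are not targeted, and the controls were heterozygous rather than wild type. METTL14 works with METTL3 to methylate adenosine in mRNA, which gives m6A. Whether replicate libraries stem from different animals is not in the labels, so p-values measure the spread between these libraries, which may be technical. A footprint level joins mRNA amount and ribosome density.

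In epidermis, chromatin regulators are known to keep basal cells proliferating and to time differentiation. Polycomb repressive complex 2 silences differentiation genes with histone H3 lysine 27 methylation, DNMT1 and UHRF1 copy DNA methylation at each replication, and the BAF remodeler and p63 open enhancers of the keratinocyte programme. These are background statements from earlier work and not results of the libraries described here.

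Depth over the listed genes was low to moderate. Recovered reads were 542074 and 751948 in the cKO libraries and 933574 and 624167 in the Ctrl libraries. Reads outside the listed genes are not in these totals. Values are CPM, so that each library sums to 1000000, and 1 read was worth 1.07 to 1.84 CPM. Mettl14 itself had 9.22 and 5.32 CPM in cKO, against 27.9 and 27.2 CPM in Ctrl, lower in both cKO libraries (log2 change -1.83; limma adjusted p = 0.122). Markers of epidermal layers and of other cell types were summed. The summed level of 10 basal keratinocyte markers was 11307 and 12674 CPM in cKO, against 24863 and 22462 CPM in Ctrl. That of 11 suprabasal markers was 206745 and 198770 CPM in cKO, against 141212 and 131325 CPM in Ctrl. For 19 of 20 proliferation markers that are listed, the sum was 2068 and 2277 CPM in cKO, against 3399 and 3521 CPM in Ctrl. Sums over 14 fibroblast markers were 3151 and 2190 CPM in cKO and 6294 and 3932 CPM in Ctrl, and sums over 6 red blood cell markers were 528 and 99.7 CPM in cKO and 121 and 81.7 CPM in Ctrl. Of 9 immune markers 7 are listed (463 and 207 CPM in cKO, 285 and 540 CPM in Ctrl), all 7 melanocyte markers are listed (1009 and 989 CPM in cKO, 829 and 1482 CPM in Ctrl), and none of 6 endothelial markers is listed. In such bulk samples fewer cells of a type and less RNA per cell cannot be told apart, and the part of these shifts in the values below was not tested.

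Together the 87 chromatin genes took a smaller share of the footprints of listed genes in cKO than in Ctrl keratinocytes. They held 0.737% of reads in cKO 1 (95% exact binomial interval 0.715 to 0.760%) and 0.697% in cKO 2 (0.679 to 0.716%), against 0.896% in Ctrl 1 (0.877 to 0.915%) and 0.832% in Ctrl 2 (0.809 to 0.855%). The cKO and Ctrl intervals did not overlap, but they cover counting error only and PCR copies are not independent molecules. On the deposited scale the median log2 change (cKO over Ctrl) was -0.28 over the 87 genes and -0.24 over all genes, and 73 of the 87 were negative (83.9%), against 67.9% of all genes. Scaled by TMM, which sets the bulk of genes level, the median of the 87 was -0.015 and 51.7% were negative, against 49.9% of all genes. Changes are therefore also given relative to the median of all genes.

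No chromatin gene passed the test. With the limma test on log2(CPM + 1) and Benjamini-Hochberg adjustment over the whole table, 0 of 87 were called at an adjusted p under 0.05, where 0.668% of all genes were called. The smallest adjusted p was 0.121, for Smarca4. At an unadjusted p under 0.05, 11 of the 87 stood out (12.6%), against 14.3% of all genes. All 11 were lower in cKO, and 10.8% of all genes had such a p in that direction. On the recovered reads, edgeR with TMM and DESeq2 also called 0 of 87, with 3 and 0 at an unadjusted p under 0.05, and edgeR on library totals called 0 with 10. In 34 genes the higher cKO value was under the lower Ctrl value (39.1%, against 34.1% of all genes), and 4 genes had both cKO values over both Ctrl values (4.6%, against 11.1%). The median absolute change was 0.34. The median absolute log2 difference was 0.31 between the cKO libraries and 0.33 between the Ctrl libraries. These measures are not alike, since a change compares means of 2 libraries, which vary less than single libraries. The change also holds the shift of all genes on the deposited scale. The 95% interval of a gene spanned 1.49 log2 units at the median, and for 38 of the 87 it excluded both a 2-fold higher and a 2-fold lower level.

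**Figure D1:**
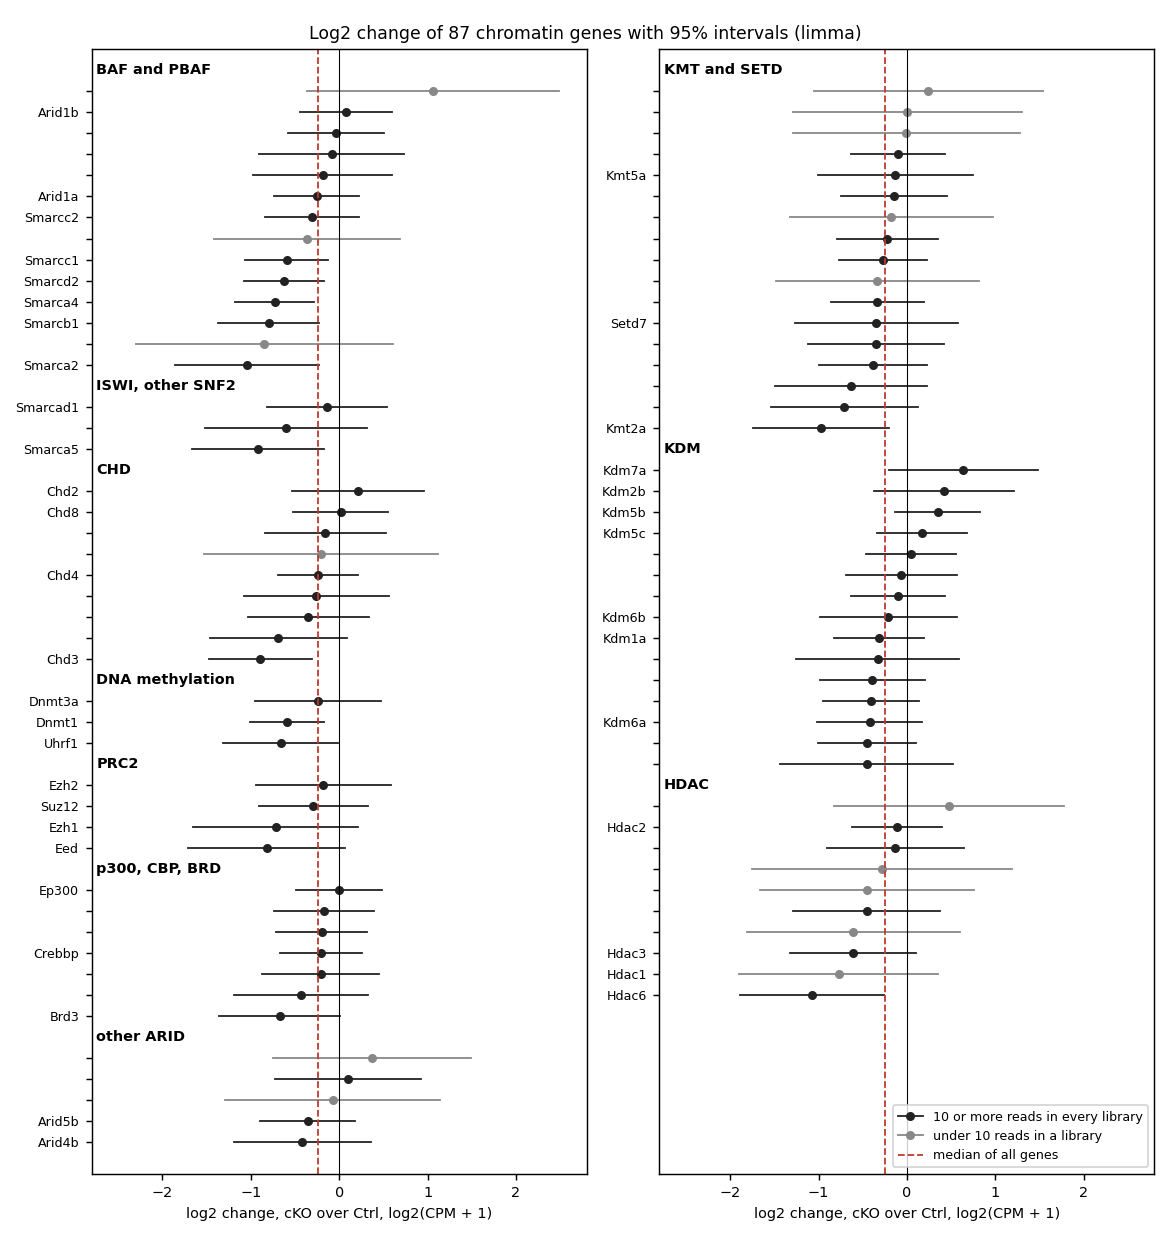
Log2 change (cKO over Ctrl, on log2(CPM + 1)) of each of the 87 chromatin genes by role, with 95% limma intervals as horizontal lines, grey where a library has under 10 reads, and with the symbols of 40 genes written out. The dashed line is the median of all genes at -0.24: 82 of the 87 intervals cross it, those of Smarca4, Chd3 and Hdac6 lie below it and those of Kdm5b and Kdm7a above it.

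Measured against the median of all genes, 5 chromatin genes had intervals that left it out. Smarca4, Chd3 and Hdac6 lay wholly below (3.45% of the 87, against 3.72% of all genes), and Kdm5b and Kdm7a wholly above (2.3%, against 7% of all genes). These intervals are not adjusted for the number of genes, and the shares did not exceed those of the table. The values of these genes are given with their complexes below.

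Footprints are short, so a gene is measured well only where its sequence is its own. A 30-base window, about a footprint long, was slid along each coding sequence and looked up on both strands of all GENCODE transcripts of other genes. For 70 of the 87 genes under 5% of windows recurred elsewhere, and for 33 none did. For 7 genes 20% or more recurred: Smarce1 (90.1%), Hdac1 (89.3%), Smarca5 (79.4%), Setd3 (77.9%), Setd1a (68.8%), Uhrf1 (46.0%) and Smarcd3 (26.9%). The leading partners of Smarce1, Hdac1, Smarca5, Setd3 and Uhrf1 are processed pseudogenes, whereas those of Setd1a include the overlapping Gm49388 and that of Smarcd3 is the overlapping Chpf2. No source used here gives how the authors treated reads with several matches. The levels and changes of these 7 genes are therefore uncertain. The first recurring window of 4 of them is shown because a footprint with these letters fits more than one gene. No base is capitalised, since all 30 are shared, and the positions are on GRCm38, with the coding strand read 5′ to 3′.
Hdac1 (chr4:129542600-129542629, minus strand, exon 1, also in Gm10093): atggcgcagactcagggcaccaagaggaaa
Smarce1 (chr11:99228289-99228318, minus strand, exon 3, also in Gm4811): aaagaccatcttatgccccacctcccaccc
Smarca5 (chr8:80739058-80739087, minus strand, exon 1, also in Gm13140): gcggtggagcctccgccgcccccgcctccc
Uhrf1 (chr17:56305143-56305172, plus strand, exon 2, also in Gm15953): gtgaactctctgtccaggttgaccaaggtg

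**Figure D2:**
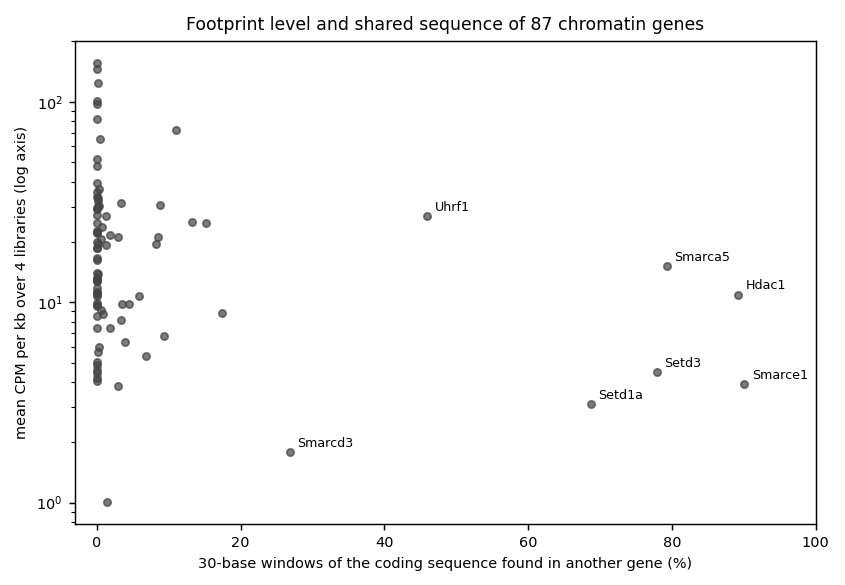
Mean level over 4 libraries (CPM per kb of coding sequence, log axis) of each of the 87 genes against the share of its 30-base coding windows found in another gene (%). The 7 named genes have 20% or more shared windows, and Hdac1, at 89.3%, sits far below the level of its paralog Hdac2, which has no shared window. A link between level and shared windows was not tested.

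The BAF and PBAF remodelers, the mammalian SWI/SNF family, are built on the ATPase SMARCA4 (BRG1) or SMARCA2 (BRM), the core subunits SMARCB1, SMARCC1, SMARCC2, SMARCD and SMARCE1, and a targeting subunit such as ARID1A, ARID1B or ARID2. None of the 14 members passed. The median log2 change was -0.34, which is -0.094 relative to all genes, with cKO under Ctrl in both libraries for 7 members (50%, against 34.1% of all genes) and over Ctrl for 1 (7.14%, against 11.1%), Smarcd3, which has 1 to 3 reads a library. An unadjusted p under 0.05 was found for 5 of the 14 (35.7%, against 14.3% of all genes), a share that was not tested: Smarca2, Smarca4, Smarcb1, Smarcc1 and Smarcd2.

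Smarca4 (ENSMUSG00000032187, chromosome 9, 21616169 to 21704230, plus strand) had 177 and 201 CPM in cKO, against 315 and 312 CPM in Ctrl. Both cKO libraries were well below both Ctrl libraries, and the Ctrl libraries were almost equal. The log2 change was -0.73 (95% interval -1.18 to -0.28; limma adjusted p = 0.121), or -0.49 relative to all genes. Smarcb1, the core subunit lost in rhabdoid tumours (ENSMUSG00000000902, chromosome 10, 75896769 to 75921617), had 64.6 and 102 CPM in cKO, against 132 and 154 CPM in Ctrl. Its groups did not overlap, with the cKO libraries further apart than the Ctrl libraries, and the log2 change was -0.80 (-1.37 to -0.23; limma adjusted p = 0.176). Smarcd2, an accessory core subunit, had 192 and 201 CPM in cKO, against 286 and 320 CPM in Ctrl (log2 change -0.62, -1.07 to -0.17; limma adjusted p = 0.179). Smarcc1, one of the paired scaffold subunits, had 210 and 170 CPM in cKO, against 320 and 256 CPM in Ctrl (-0.60, -1.07 to -0.13; limma adjusted p = 0.227), and its exons overlap Dhx30. Smarca2, the alternative ATPase, had 22.1 and 30.6 CPM in cKO, against 40.7 and 73.7 CPM in Ctrl (-1.05, -1.86 to -0.23; limma adjusted p = 0.219).

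The targeting subunits lay closer to level than the genes above, and so did the core subunits Smarcc2 and Smarcd1. Arid1a had 166 and 227 CPM in cKO, against 239 and 226 CPM in Ctrl, so the groups overlapped (log2 change -0.26, interval -0.73 to 0.22). Arid1b had 146 and 130 CPM in cKO, against 152 and 112 CPM in Ctrl (0.08, -0.44 to 0.60), and Arid2, the PBAF subunit, had 125 and 113 CPM in cKO and 150 and 99.3 CPM in Ctrl (-0.035, -0.58 to 0.51). Whether the core and targeting subunits differ in their change was not tested, and their intervals overlap. Smarcc2, the other scaffold, had 97.8 and 93.1 CPM in cKO, against 125 and 112 CPM in Ctrl (-0.31, -0.84 to 0.22). Smarcd1 had 38.7 and 31.9 CPM in cKO, against 50.3 and 32.0 CPM in Ctrl, with overlap (-0.19, -0.98 to 0.60). The groups also overlapped in the core subunit Smarce1, but at a low log2 change of -0.85 (-2.30 to 0.61). It had 1 to 7 reads a library.

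Per kb of the longest coding sequence, subunits of the same complex differed widely in level. This scale is approximate for comparing genes, since the counted feature is not given. Smarcd2 led with 123 ± 3.98 CPM per kb in cKO and 190 ± 15.3 in Ctrl (SD, n = 2 each). Smarcb1 had 72.3 ± 23.2 CPM per kb in cKO and 124 ± 13.5 in Ctrl, and Smarca4 39.0 ± 3.46 in cKO and 64.7 ± 0.365 in Ctrl. Arid1a stood at 28.7 ± 6.33 CPM per kb in cKO and 33.9 ± 1.34 in Ctrl. At the low end, Smarce1, a shared core subunit, had 2.78 ± 2.41 CPM per kb in cKO and 4.99 ± 1.54 in Ctrl. Of its windows 90.1% recur in other genes, and whether this bears on its level was not tested. Smarcd3, the subunit of muscle and heart, had 2 and 3 reads in the cKO libraries and 1 read in each Ctrl library, too few to compare.

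**Figure D3:**
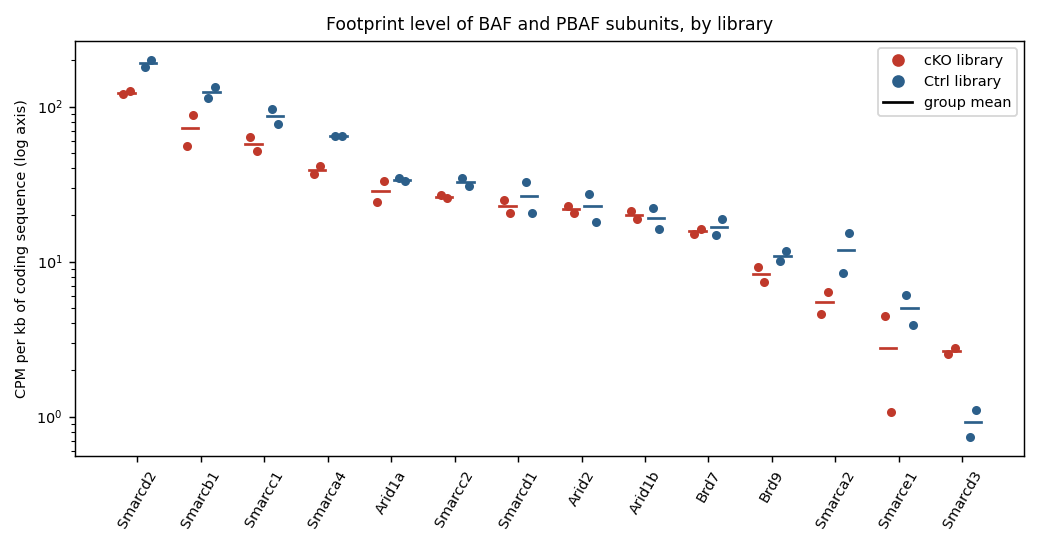
Level of the 14 BAF and PBAF subunits (CPM per kb of coding sequence, log axis), with each library as a point and the group mean as a line, cKO left of Ctrl for each gene. Both cKO points lie below both Ctrl points in 7 genes: Smarcd2, Smarcb1, Smarcc1, Smarca4, Smarcc2, Brd9 and Smarca2. The points of Arid1a, Arid1b and Arid2 overlap, as do those of Brd7 and of the core subunits Smarcd1 and Smarce1.

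The other SNF2 ATPases were few. Smarca5 (SNF2H), the motor of the ISWI remodelers that space nucleosomes, had 38.7 and 26.6 CPM in cKO, against 73.9 and 51.3 CPM in Ctrl (log2 change -0.92, -1.66 to -0.17; limma adjusted p = 0.242), on a coding sequence shared with pseudogenes. Smarcad1, which helps restore heterochromatin after replication, had 68.3 and 42.6 CPM in cKO, against 57.8 and 60.9 CPM in Ctrl, with overlapping groups. Smarcal1, which remodels stalled replication forks, had 18.4 and 22.6 CPM in cKO, against 25.7 and 38.5 CPM in Ctrl (-0.60, -1.52 to 0.32).

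CHD proteins are remodelers with chromodomains; CHD3 and CHD4 are alternative ATPases of the NuRD corepressor. Of 9 members none passed, and their median of -0.24 was 0.0081 from that of all genes. Chd4 (ENSMUSG00000063870, chromosome 6, 125095981 to 125130591, plus strand) was the most abundant of the family, with 731 and 581 CPM in cKO, against 916 and 644 CPM in Ctrl. The lower Ctrl library lay between the cKO libraries, and the log2 change was -0.24 (-0.69 to 0.22; limma adjusted p = 0.66). Its paralog Chd3 (ENSMUSG00000018474, chromosome 11, 69343273 to 69369406, minus strand) had 53.5 and 65.2 CPM in cKO, against 103 and 119 CPM in Ctrl. Here the groups were clearly apart, with a log2 change of -0.89 (-1.47 to -0.31; limma adjusted p = 0.145), or -0.65 relative to all genes. Chd8, a binder of beta-catenin, had 166 and 136 CPM in cKO, against 189 and 117 CPM in Ctrl, and Chd2 had 73.8 and 37.2 CPM in cKO, against 43.9 and 46.5 CPM in Ctrl. In both the groups overlapped.

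Genes with symbols that start with Kmt or Setd, grouped by symbol and not by proven activity on histones, numbered 17. None passed (median log2 change -0.27, -0.026 relative to all genes). Kmt2a (MLL1), which methylates histone H3 lysine 4 (ENSMUSG00000002028, chromosome 9, 44803355 to 44881296), had the lowest change of them, with 22.1 and 39.9 CPM in cKO, against 61.1 and 57.7 CPM in Ctrl. Both cKO libraries lay below Ctrl (log2 change -0.97, -1.74 to -0.20; limma adjusted p = 0.228). The related Kmt2d, a methyltransferase of enhancers, had 124 and 124 CPM in cKO, against 144 and 155 CPM in Ctrl (-0.27, -0.77 to 0.23). Kmt2c, its close paralog, had 101 and 109 CPM in cKO, against 120 and 106 CPM in Ctrl (-0.098, -0.63 to 0.43), and the groups overlapped. Setd2, the writer of H3 lysine 36 trimethylation, had 138 and 112 CPM in cKO, against 186 and 133 CPM in Ctrl. Per kb, Setd7 and Kmt5a, both short enzymes, were the most abundant of the group, and their libraries overlapped: Setd7 had 24.6 ± 6.30 CPM per kb in cKO and 33.6 ± 18.5 in Ctrl, and Kmt5a, the H4 lysine 20 monomethylase, 24.1 ± 5.47 in cKO and 26.2 ± 1.78 in Ctrl (SD, n = 2 each).

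Of the 15 lysine demethylases none passed, and the median was -0.21 on the deposited scale, 0.034 above that of all genes. Kdm5b (JARID1B), which removes H3 lysine 4 methylation (ENSMUSG00000042207, chromosome 1, 134560171 to 134635285, plus strand), had 867 and 644 CPM in cKO, against 739 and 465 CPM in Ctrl. The lower cKO library fell between the Ctrl libraries, and replicates of a group differed as much as the groups (log2 change 0.35, -0.13 to 0.83; limma adjusted p = 0.517), or 0.59 relative to all genes. At 163 ± 34.1 CPM per kb in cKO and 130 ± 41.9 in Ctrl (SD, n = 2 each), it stood beside Smarcd2 and Chd4 at the top of the 87 genes. Kdm7a, an eraser of H3 lysine 9 and 27 methylation (ENSMUSG00000042599, chromosome 6, 39136623 to 39206789), had 36.9 and 37.2 CPM in cKO, against 21.4 and 25.6 CPM in Ctrl. The cKO libraries were close together and above Ctrl, on 16 to 28 reads each, with a log2 change of 0.64 (-0.21 to 1.48; limma adjusted p = 0.495). Kdm2b, a CpG island binder of a Polycomb complex, had 42.4 and 37.2 CPM in cKO, against 29.99 and 28.8 CPM in Ctrl, without overlap (0.42, -0.37 to 1.21); its exons overlap those of Rnf34 and 2 other annotated genes.

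The remaining demethylases lay between these and the median of all genes or below it. Kdm5c, the X-linked paralog of Kdm5b, had 183 and 176 CPM in cKO, against 130 and 194 CPM in Ctrl (0.17, -0.33 to 0.68). Kdm1a (LSD1), a flavin-dependent eraser of H3 lysine 4 methylation, had 177 and 129 CPM in cKO, against 214 and 167 CPM in Ctrl (-0.32, -0.83 to 0.19). Of the H3 lysine 27 demethylases, Kdm6a (UTX) had 86.7 and 69.2 CPM in cKO, against 83.5 and 130 CPM in Ctrl, and Kdm6b (JMJD3) had 31.4 and 58.5 CPM in cKO, against 39.6 and 62.5 CPM in Ctrl. In both pairs of groups the libraries overlapped. The lowest change of the family was that of Kdm4c, with 18.4 and 19.9 CPM in cKO, against 19.3 and 36.8 CPM in Ctrl (-0.46, -1.44 to 0.52).

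Of the 10 histone deacetylases none passed, and their median of -0.45 was -0.21 relative to all genes. Hdac6, a mainly cytoplasmic enzyme that deacetylates tubulin (ENSMUSG00000031161, chromosome X, 7930120 to 7947889), had the lowest log2 change of all 87 genes. It had 18.4 and 39.9 CPM in cKO, against 61.1 and 56.1 CPM in Ctrl, with the cKO libraries wide apart on 10 and 30 reads (log2 change -1.08, -1.89 to -0.26; limma adjusted p = 0.201). Hdac3, the enzyme of the NCoR corepressor, had 31.4 and 49.2 CPM in cKO, against 55.7 and 65.7 CPM in Ctrl (-0.61, -1.32 to 0.11). Hdac2 was the most abundant per kb, with 96.5 ± 1.01 CPM per kb in cKO and 105 ± 20.6 in Ctrl (SD, n = 2 each). Its CPM were 140 and 142 in cKO, against 176 and 133 in Ctrl, with overlap (-0.11, -0.62 to 0.39). Hdac1, its partner in NuRD, Sin3 and CoREST complexes, had only 5 and 10 reads in the cKO libraries and 14 and 16 in the Ctrl libraries, with 89.3% of its windows shared. The Ctrl libraries of Hdac5, a class IIa enzyme, were far apart, with 75.6 and 65.2 CPM in cKO, against 43.9 and 135 CPM in Ctrl.

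Polycomb repressive complex 2 consists of the methyltransferase EZH2 or EZH1 with EED and SUZ12. None of the 4 passed (median -0.50, or -0.26 relative to all genes). Eed had 18.4 and 23.9 CPM in cKO, against 47.1 and 30.4 CPM in Ctrl (log2 change -0.82, -1.71 to 0.064). Ezh1 had 20.3 and 17.3 CPM in cKO, against 25.7 and 38.5 CPM in Ctrl (-0.72, -1.65 to 0.21). Suz12 had 68.3 and 54.5 CPM in cKO, against 81.4 and 68.9 CPM in Ctrl (-0.29, -0.91 to 0.33). In these 3 genes both cKO values were below both Ctrl values (75% of the 4, against 34.1% of all genes), with a gap of under 1 CPM in Suz12. That share of so few genes was not tested, and 0 of the 4 had an unadjusted limma p under 0.05. Ezh2, the form of dividing cells, had 51.7 and 35.9 CPM in cKO, against 36.4 and 65.7 CPM in Ctrl, so its groups overlapped (-0.18, -0.94 to 0.58).

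Of 3 DNA methylation genes, the maintenance pair, Dnmt1 and Uhrf1, had both cKO values below both Ctrl values (66.7%, against 34.1% of all genes). That share of so few genes was not tested, and none of the 3 passed. Dnmt1 (ENSMUSG00000004099, chromosome 9, 20907209 to 20959888, minus strand) had 314 and 324 CPM in cKO, against 486 and 476 CPM in Ctrl. Replicates differed far less than the groups, with means of 319 ± 7.69 CPM in cKO and 481 ± 7.40 CPM in Ctrl (SD, n = 2 each). The log2 change was -0.59 (-1.01 to -0.17) and did not pass (limma adjusted p = 0.177). limma moderates a gene's variance toward that of genes of like level. Uhrf1, which guides DNMT1 to hemimethylated DNA, had 40.6 and 57.2 CPM in cKO, against 69.6 and 84.9 CPM in Ctrl (-0.66, -1.32 to -0.011; limma adjusted p = 0.341), and 46.0% of its windows are shared. Dnmt3a, the de novo enzyme, had 42.4 and 51.9 CPM in cKO, against 42.8 and 72.1 CPM in Ctrl, with overlap (-0.24, -0.96 to 0.47). Dnmt1 and Uhrf1 are S phase genes, and the summed proliferation markers were 2068 and 2277 CPM in cKO, against 3399 and 3521 CPM in Ctrl; their part in these values was not tested.

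The acetyltransferases p300 and CBP, coactivators that acetylate H3 lysine 27, were close to level. Ep300 had 190 and 198 CPM in cKO, against 227 and 167 CPM in Ctrl (log2 change -0.0036, -0.49 to 0.48). Crebbp had 207 and 202 CPM in cKO, against 258 and 216 CPM in Ctrl (-0.21, -0.67 to 0.25). Brd3, a bromodomain reader of acetylated histones, had 38.7 and 78.5 CPM in cKO, against 79.3 and 99.3 CPM in Ctrl (-0.68, -1.36 to 0.0075; limma adjusted p = 0.357). The cKO libraries of Brd3 were far apart, and one almost reached the lower Ctrl library. All 7 genes of this group were negative on the deposited scale, but 2 of 7 were after TMM. The 5 remaining ARID proteins, which bind DNA, had no member past the test, the most abundant per kb being Arid5b, with 125 and 173 CPM in cKO, against 150 and 237 CPM in Ctrl, and Arid4b, a Sin3 subunit, with 60.9 and 27.9 CPM in cKO, against 62.1 and 49.7 CPM in Ctrl.

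**Figure D4:**
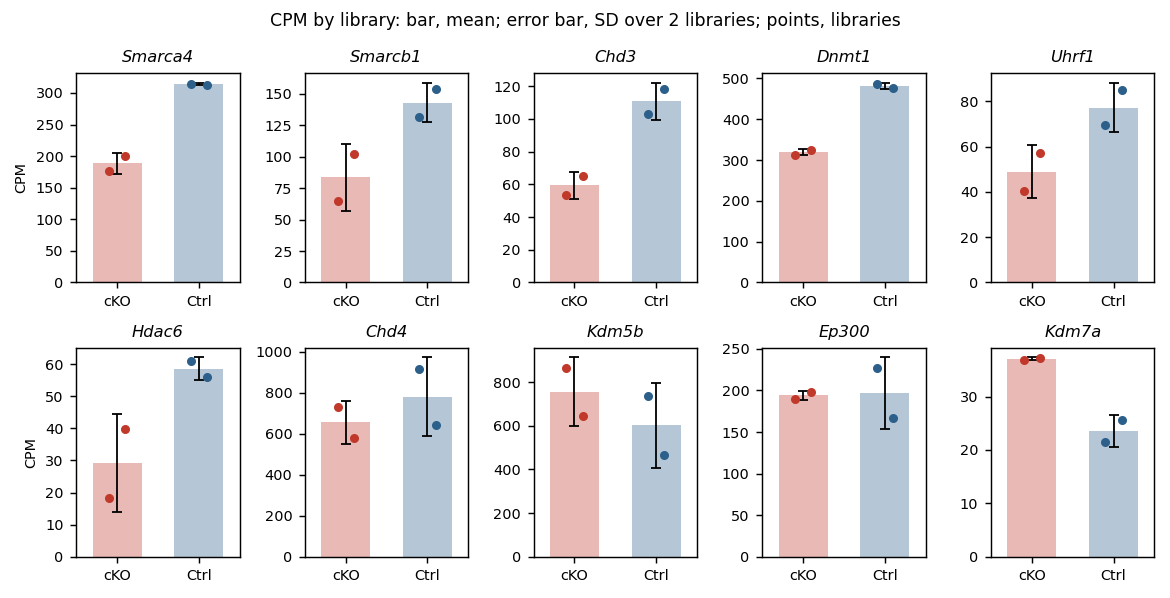
CPM of 10 chromatin genes, with bars for the mean, error bars for the SD over 2 libraries and points for the libraries, cKO left of Ctrl. The groups are apart in Smarca4, Smarcb1, Chd3, Dnmt1, Uhrf1 and Hdac6 (cKO lower) and Kdm7a (cKO higher), and overlap in Chd4, Kdm5b and Ep300. The 10 genes were picked with earlier results of these data known and do not represent the 87. Of the 87, 39.1% had both cKO libraries below both Ctrl libraries (34.1% of all genes) and 4.6% above (11.1% of all genes).

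Many of these enzymes come as interchangeable paralogs, and a share of reads within a pair does not depend on library scaling. Intervals are 95% exact binomial and cover counting error only. Chd4 took 93.2% (90.3 to 95.4%) and 89.9% (86.9 to 92.4%) of Chd4 and Chd3 reads in cKO, against 89.9% (87.8 to 91.7%) and 84.5% (80.9 to 87.6%) in Ctrl. The lower cKO share exceeded the higher Ctrl share by less than the counting error. Ezh2 took 71.8% (55.1 to 85.0%) and 67.5% (50.9 to 81.4%) of Ezh2 and Ezh1 reads in cKO, against 58.6% (44.9 to 71.4%) and 63.1% (50.2 to 74.7%) in Ctrl, a difference not detectable at this depth. Ep300 took 47.9% and 49.5% of reads with Crebbp in cKO, against 46.8% and 43.5% in Ctrl, and the intervals overlapped.

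The other 6 pairs were as follows. Smarca4 took 88.9% and 86.8% of reads with Smarca2 in cKO, against 88.6% and 80.9% in Ctrl. Smarcc1 took 68.3% and 64.6% of reads with Smarcc2 in cKO, against 71.9% and 69.6% in Ctrl, so both cKO shares were lower, by a gap within the counting intervals. Arid1a took 53.3% and 63.6% with Arid1b in cKO, against 61.1% and 66.8% in Ctrl, and Kdm6a took 73.4% and 54.2% with Kdm6b in cKO, against 67.8% and 67.5% in Ctrl. Kdm5c took 17.4% (14.4 to 20.8%) and 21.4% (18.3 to 24.9%) with Kdm5b in cKO, against 14.9% (12.5 to 17.6%) and 29.4% (25.1 to 34.1%) in Ctrl. There the Ctrl libraries differed from each other beyond counting error and enclosed both cKO libraries. Hdac1 took 6.17% and 8.55% with Hdac2 in cKO, against 7.87% and 16.2% in Ctrl, with the limit from shared windows given above.

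**Figure D5:**
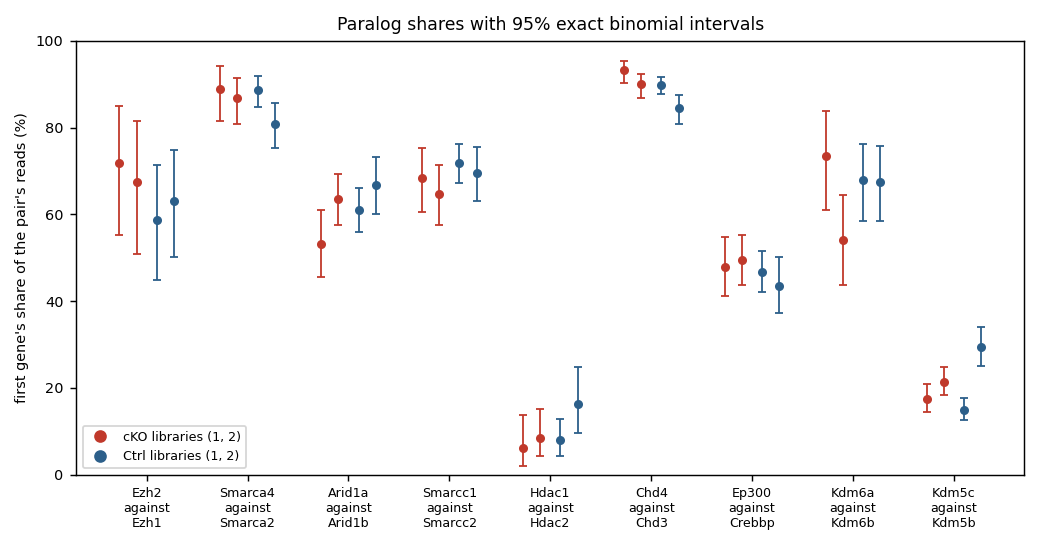
Share of a pair's reads taken by its first gene (%), with 95% exact binomial intervals, for 9 paralog pairs, with the cKO libraries left of the Ctrl libraries. Shares were 84.5 to 93.2% for Chd4 and 43.5 to 49.5% for Ep300, and for Kdm5c against Kdm5b the Ctrl libraries (14.9% and 29.4%) enclosed the cKO libraries.

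The wider machinery around these enzymes was examined in 10 lists of partners and related enzymes that the symbol rule leaves out, of which 150 of 165 genes are listed. Of the 150, 1 passed (0.667%, against 0.668% of all genes). Nasp, a chaperone of histone H3 and H4 and of linker histone H1 (chromosome 4, 116601052 to 116627941, minus strand), had 116 and 109 CPM in cKO, against 276 and 253 CPM in Ctrl. It fell by 1.22 on the log2 scale (95% interval -1.70 to -0.75; limma adjusted p = 0.0169), and the other 17 histone chaperones did not pass. Without cKO 1 its limma adjusted p was 0.532 and without cKO 2 it was 0.552, settings in which no gene of the table was called, and with DESeq2 it was 0.054. The median of the 150 was -0.37, or -0.12 relative to all genes, with 67 below both Ctrl libraries (44.7%, against 34.1% of all genes) and 10 above (6.67%, against 11.1%).

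Partners of the complexes that contain Smarca4, Chd4 and Hdac2 were read the same way. The 12 listed BAF partners had a median log2 change of -0.62 and none passed; the most abundant per kb of coding sequence, Actl6a, an actin-like subunit that is known to maintain the epidermal progenitor state, had 68.3 and 57.2 CPM in cKO, against 96.4 and 97.7 CPM in Ctrl. The 24 NuRD and deacetylase partners had a median of -0.43; the histone binder Rbbp4 had 207 and 142 CPM in cKO, against 290 and 311 CPM in Ctrl (limma adjusted p = 0.117). Medians were -0.29 for 11 COMPASS partners (Dpy30 the most abundant per kb, as is each gene named in parentheses here), -0.22 for 18 Polycomb partners (Rnf2), -0.43 for 20 other methyltransferases and heterochromatin proteins (Prmt1) and -0.36 for 17 INO80, SWR1 and ISWI partners (Yy1). They were -0.64 for the 18 histone chaperones, -0.13 for 9 DNA methylation partners (Tet3), 0.015 for 14 acetyltransferases (Hat1) and 0.10 for 7 other demethylases. Relative to all genes, medians were -0.38 for BAF, -0.19 for NuRD and deacetylase, -0.048 for COMPASS and 0.022 for Polycomb partners. They were -0.19 for other methyltransferases and heterochromatin proteins, -0.12 for INO80, SWR1 and ISWI partners and -0.39 for histone chaperones. DNA methylation partners, acetyltransferases and other demethylases lay above the median of all genes, by 0.12, 0.26 and 0.35. Among the other demethylases Hr, the hairless demethylase of skin, had 220 and 242 CPM in cKO, against 141 and 165 CPM in Ctrl, and did not pass (log2 change 0.59, 0.12 to 1.06; limma adjusted p = 0.235).

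Most of the 87 genes have long coding sequences, a feature that the rule did not use. Their median coding length was 3363 bases, against 1458 over all genes, 12 of the 87 were shorter than that of all genes, and their median CPM of 50.5 against 28.1 therefore becomes 16.3 CPM per kb against 19.3. The m6A writer is known to prefer a short consensus of which GGACT is one form. It was counted on the sense strand of the longest coding sequence of each gene, and no other motif was searched. GGACT occurred in 79 of the 87 genes (90.8%) and in 78.3% of 10319 coding sequences of the table, at a median density of 0.929 per kb in the 87 and 1.08 per kb in the table. Across the 87 genes, which share libraries and depth, Spearman's rho of the log2 change with GGACT density was 0.157 and with coding length 0.042, given as a description. m6A itself was not measured in these libraries, and a match is not a methylated site. An occurrence is shown for the 3 genes of highest CPM and the 2 with the smallest p, with GGACT in capitals, on GRCm38 and the coding strand. It is the one nearest the stop codon whose 30-base stretch lies in the coding part of a single exon. Nearer ones whose stretch crosses an exon border were passed over.
Kdm5b (chr1:134630678-134630707, plus strand, exon 26): ctccgaacaggaGGACTctgaggatgaaga
Chd4 (chr6:125110255-125110284, plus strand, exon 22): gaccaagatgttGGACTtgctagaggattt
Dnmt1 (chr9:20911907-20911936, minus strand, exon 32): agtgttcacagaGGACTgcaacgtgcttct
Smarca4 (chr9:21699878-21699907, plus strand, exon 30): ccgaaagcctgtGGACTtcaagaagatcaa
Chd3 (chr11:69354439-69354468, minus strand, exon 21): agaccttctggaGGACTtcctagactatga
The motif shown lies 194 bases before the stop codon in Kdm5b, 422 in Smarca4, 1280 in Dnmt1, 2525 in Chd4 and 2726 in Chd3.

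Exons of 37 of the 87 genes overlap those of another annotated gene, and the strand setting of the counting is not given. Without them, 20 of 50 genes (40%, against 34.1% of all genes) had both cKO libraries below both Ctrl libraries, and the median log2 change was -0.26, against -0.24 for all genes.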

How the data were processed

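Ribosome profiling libraries of cKO and Ctrl keratinocytes (2 each) were analysed. Per the submitters' processing notes the authors used fastp, HISAT2 and HTSeq with build GRCm38; no source used here gives versions, counted feature or strand. The deposited values are CPM, which sum to 1000000 over the listed genes of each library. All values (100%) were whole multiples of 1 read (tolerance 1e-06 reads), so reads were recovered, and every gene has at least 1 read in each library. The table names control columns WT, taken as Ctrl of the same number.

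Symbols, coordinates and coding sequences came from GENCODE M21 (GRCm38), and all 10327 identifiers matched. limma 3.58.1 (R 4.3.3, mean-variance trend) was fitted to log2(CPM + 1) with group as the only term; a filter of 1 CPM in 2 libraries removed no gene. This scale understates changes of low genes. Alternatives were edgeR 4.0.16, DESeq2 1.42.0, other pseudocounts and filters, median centring, a replicate block and leaving out each library. The fit was also run on simulated counts drawn with the same dispersion for every gene. Its recovery of set changes is not given here. With 2 libraries a group an exact permutation test cannot pass.

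Genes, lists and the naming rule were chosen with earlier results of these data known. Named were the 9 genes given by full symbol, the 2 most abundant per kb in each role, the 5 highest and 5 lowest changes with 10 or more reads in every library, and 9 paralog pairs; of partner lists, called genes or else the most abundant per kb. Other genes were named after their values were seen, and 1 gene is not reported singly here.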

Additional observations from a re-analysis of the deposited data

How the results depend on the processing

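Over 13 alternatives, the 40 named chromatin genes gave 466 values with the same direction and side of the threshold, 10 that passed only under the replicate block and 44 of opposite sign. The fit without a filter repeated the main fit, since the filter removed no gene. The higher filter and the replicate block leave each log2 change as it was. Values from these settings could not change sign, so the count overstates the agreement. The count of called chromatin genes stayed at 0 of 87 in all alternatives but the block. Their median log2 change was -0.079 after median centring, -0.015 with edgeR TMM and -0.042 with DESeq2; the median of all genes moved with it, to -0.040, 0.0018 and -0.014. Of the wider lists, 1 gene was called, 0 with DESeq2, and 0 to 1 with a library left out.

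Replicate numbers are shared by the groups, but the labels do not pair the samples. Across all genes, deviations from the group mean correlated at 0.195 between cKO 1 and Ctrl 1. With 2 libraries a group, cKO 2 and Ctrl 2 have to give the same value. With a replicate block limma called 10 of the 87 genes (11.5%), all lower in cKO, where 5.64% of all genes were called lower and 2.49% higher. It called 18 of 150 wider genes, 17 lower (11.3%) and 1 higher.

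Signs of these log2 changes turned. Median centring gave 0.0065 for Crebbp, 0.21 for Ep300, 0.031 for Ezh2, 0.10 for Hdac2, 0.00075 for Kdm6b, 0.078 for Kmt5a and 0.076 for Smarcad1. edgeR TMM gave 0.019 for Arid1a, 0.031 for Crebbp, 0.014 for Dnmt3a, 0.22 for Ep300, 0.050 for Ezh2, 0.11 for Hdac2, 0.14 for Kdm6b, 0.15 for Kmt5a and 0.13 for Smarcad1, and edgeR on library totals -0.037 for Chd8. DESeq2 gave 0.0045 for Arid1a, 0.019 for Crebbp, 0.21 for Ep300, 0.030 for Ezh2, 0.10 for Hdac2, 0.093 for Kdm6b, 0.13 for Kmt5a and 0.13 for Smarcad1.
With each library left out in turn, log2 changes ranged from -0.14 to 0.29 for Arid1b, -0.27 to 0.70 for Chd2, -0.33 to 0.36 for Chd8, -0.23 to 0.22 for Ep300, -0.65 to 0.23 for Kdm6b, -0.35 to 0.095 for Kmt5a, -0.97 to 0.13 for Arid4b, -0.60 to 0.24 for Ezh2, -0.47 to 0.20 for Smarcad1, -0.49 to 0.017 for Chd4, -0.31 to 0.086 for Hdac2, -0.11 to 0.46 for Kdm5c, -0.61 to 0.13 for Dnmt3a and -0.92 to 0.23 for Setd7. The lone library of a group was then assumed to vary like the other group. The cause of these shifts was not tested. At this depth 16 of the 87 genes had under 10 reads in some library.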
